A study of Mus musculus with 8 samples.

Results

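The chemokine ligand genes comprise every gene measured by a probe set of a single gene symbol beginning with Ccl, Cxcl or Xcl and a digit, together with Cx3cl1, and they number 34 of the 19938 genes on the array. The rule reads symbols and not values, but the family was picked for description with earlier results of these data known. Where a gene had several probe sets, the brightest on average was taken. RNA came from hepatic stellate cells of male Balb/c mice, sorted on the autofluorescence of their stored retinoids and lysed right after the sort. The reverted group (4 arrays) came from mice given 4 injections of carbon tetrachloride (CCl4), a liver toxin, at 0.5 µl per g of body weight and 2 per week, which then rested for 45 days. The quiescent group (4 arrays) came from normal mice with no such exposure. The labels put the quiescent mice at 18 weeks of age, and the reverted mice at 16 weeks in one place and 18 in another. They do not say whether an array holds 1 mouse or a pool, so the p-values cover no more than the spread among these 8 preparations, which may be technical.

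Chemokines are small secreted proteins that steer leukocytes by binding G-protein-coupled receptors, and they are held on cell surfaces by glycosaminoglycans. The family is divided by the spacing of its conserved cysteines into CC, CXC, XC and CX3C ligands. Inflammatory members are induced by cytokines and Toll-like receptor ligands through NF-kB and interferon-regulated factors, while homeostatic members are made constitutively by stromal cells. In liver, stellate cells are a known source of Ccl2, Cxcl1 and Cxcl12, and activated stellate cells recruit monocytes through Ccl2.

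In the cells that had passed through injury and rest, 3 of the 34 ligands were higher than in quiescent cells: Cxcl14 (2.11-fold), the lymphoid chemokine Ccl19 (1.48-fold) and the monocyte chemokine Ccl6 (1.22-fold). None was called lower (0 of 34), and 5 of 34 had an unadjusted p under 0.05 (4 higher, 1 lower), against 16% of all genes. The inflammatory ligands Ccl2, Ccl7, Cxcl1, Cxcl2, Cxcl9 and Cxcl10 overlapped between the groups and did not pass the test, and neither did the abundant stromal ligand Cxcl12. Calls are from limma with Benjamini-Hochberg adjustment over all 19938 genes at an adjusted p under 0.05, and every log2 change is reverted minus quiescent. The same rule called 8.82% of the ligands higher and 0 lower, against 0.527% of all genes higher and 0.186% lower (0.712% in either direction). In bulk RNA, a change in the share of cells of a type and a change in RNA per cell cannot be told apart.

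Sequence before annotated starts is shown first, because the family is known for its inducible promoters. RefSeq (GRCm38.p6) gave 24 windows of 250 bases before an annotated start for 23 of the 34 genes. They were searched on both strands for a strict NF-kB site (GGGANNTTCC) and an interferon-stimulated response element, or ISRE (TTTCNNTTTC). Overlapping matches of a motif were counted as 1 site. The windows of Ccl19 and Ccl6 are given whole, 5′ to 3′ on the gene's strand, with motif matches in capitals, and for Cxcl14 the stretch around its match is given.
Cxcl14 ISRE, bases -172 to -163 from the start: gtgtccacagGAAACAGAAAagcagcaccc
Ccl19, chr4:42756366-42756615, minus strand: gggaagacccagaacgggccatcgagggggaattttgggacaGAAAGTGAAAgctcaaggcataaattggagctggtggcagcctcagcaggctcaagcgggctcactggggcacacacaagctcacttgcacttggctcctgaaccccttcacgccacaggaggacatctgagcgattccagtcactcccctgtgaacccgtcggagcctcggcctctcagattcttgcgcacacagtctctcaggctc
Ccl6, chr11:83593088-83593337, minus strand: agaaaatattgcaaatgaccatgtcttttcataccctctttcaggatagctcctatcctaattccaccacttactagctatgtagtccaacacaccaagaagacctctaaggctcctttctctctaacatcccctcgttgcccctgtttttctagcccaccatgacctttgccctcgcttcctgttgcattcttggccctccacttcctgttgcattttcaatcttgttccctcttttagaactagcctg
The Ccl19 window holds an ISRE match at bases -208 to -199 from the start, and the Ccl6 window holds neither motif. The start used for Cxcl14 lies 260 bases inside its RefSeq gene record, so that its match is downstream of the gene's outermost start.

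For the inducible ligands, stretches around the matches show how alike these are. The neighbours Cxcl1 and Cxcl2 and the nearby Cxcl3 carry the same run of letters, and Cxcl10 carries both motifs.
Cxcl1 NF-kB, bases -71 to -61 from the start: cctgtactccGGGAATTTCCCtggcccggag
Cxcl2 NF-kB, bases -97 to -87 from the start: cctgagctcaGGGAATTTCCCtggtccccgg
Cxcl3 NF-kB, bases -73 to -63 from the start: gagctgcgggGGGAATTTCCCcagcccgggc
Cxcl10 NF-kB, bases -159 to -150 from the start: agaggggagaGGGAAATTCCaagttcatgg
Cxcl10 ISRE, bases -213 to -204 from the start: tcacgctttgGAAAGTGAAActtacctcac
The ISRE letters of Cxcl10 are those of Ccl19. In all, 5 of the 24 windows held the NF-kB motif (Ccl1, Cxcl1, Cxcl2, Cxcl3 and Cxcl10), or 20.8%, against 1.21% of all 32851 windows of the same length. The ISRE motif lay in 3 of 24 (Ccl19, Cxcl10 and Cxcl14), or 12.5%, against 2.98% of all windows. Of the 24 windows, 3 lie wholly inside their own gene record (Cxcl14, Ccl17 and 1 of the pair for Ccl25), and without them 5 of 21 held the NF-kB motif and 2 of 21 the ISRE motif. These are matches of letters, not shown to be bound sites, and 11 ligands had no window in the table used here.

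The arrays were alike in scale, with medians between 7.66 and 7.74 on the log2 scale. In a principal component analysis, quiescent array 4 stood apart from its group on the leading component, at -0.21, with the reverted arrays between 6.07 and 11.5 and the other quiescent arrays between -14.0 and -8.79. Without that array all 3 ligand calls held, and 175 genes were called higher and 72 lower, against 105 and 37 with all arrays. Stellate markers were abundant: Lrat, which esterifies retinol, averaged 14.04 in reverted and 14.05 in quiescent cells, near the top of the scale. The mean over 14 stellate markers ran from 13.18 to 13.25 in reverted and from 13.26 to 13.30 in quiescent arrays. In that list 1 of 14 had a higher mean, 0 were called higher and the glial filament gene Gfap was called lower. Over all genes, 0.527% were called higher and 0.186% lower. Ngfr (log2 change -0.20, limma adjusted p = 0.176) and Colec11 (-0.08, adjusted p = 0.310) were also lower without overlap, but did not pass. Of all genes, 4.09% were lower without overlap.

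Cxcl14 encodes a homeostatic CXC chemokine made by epithelia and fibroblasts. It read 8.95, 8.77, 8.74 and 8.52 in reverted arrays 1 to 4, against 7.85, 7.71, 7.46 and 7.65 in quiescent arrays 1 to 4. Every reverted array lay above every quiescent array, and the gap between the groups exceeded the range within either. The means were 8.74 ± 0.17 in reverted and 7.67 ± 0.16 in quiescent cells (SD, n = 4 each), a log2 change of 1.08 (SE 0.10, limma adjusted p = 0.00282). When arrays were dropped singly, the change stayed between 1.01 and 1.15 and the highest adjusted p was 0.0158. This was the largest absolute log2 change among the 34 ligands.

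Ccl19, a Ccr7 ligand that guides dendritic cells and naive T cells in lymphoid stroma, was the next by p. Its chosen probe set gave 10.64, 10.87, 10.80 and 10.82 in reverted arrays 1 to 4, against 10.20, 10.21, 10.14 and 10.30 in quiescent arrays 1 to 4. Again the groups did not overlap, and reverted array 1 was the lowest of its group. The log2 change was 0.57 (SE 0.06, limma adjusted p = 0.00423), and with each array left out it ran from 0.54 to 0.62, with a highest adjusted p of 0.0250.

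The array carries 5 probe sets for Ccl19, which together hold only 4 distinct sets of values, because a pair of them is identical on all 8 arrays. They therefore are not independent measurements. Over all 35556 probe sets, each kept as its own feature, all 5 were called higher, with log2 changes from 0.53 to 0.58 and adjusted p from 0.0122 to 0.0132 in limma. Their values spanned 10.47 to 10.87 in reverted arrays and 10.005 to 10.30 in quiescent arrays. Ccl19 lies beside the near-identical Ccl21 and Ccl27 copies in a duplicated stretch of chromosome 4, and whether the probe sets read 1 copy of Ccl19 or several was not settled here.

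The neighbouring Ccl21 and Ccl27 genes have only probe sets that carry several symbols, 4 and 3 of them, so no single gene is named from these. The 4 Ccl21 probe sets, which read the other Ccr7 ligand, were identical to each other. They gave 7.67, 7.72, 7.34 and 7.50 in reverted arrays 1 to 4, against 7.66, 7.75, 7.61 and 7.61 in quiescent arrays 1 to 4. The groups overlapped, at a log2 change of -0.10 (SE 0.08, limma adjusted p = 0.638). The Ccl27 probe sets, which read a skin-homing ligand family, ran from 9.39 to 9.68 in reverted and from 9.18 to 9.67 in quiescent arrays, with log2 changes of 0.09 to 0.12 and adjusted p from 0.505 to 0.573. The Ccl21 and Ccl27 probe sets did not pass, and the difference between them and Ccl19 was not tested.

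**Figure D1:**
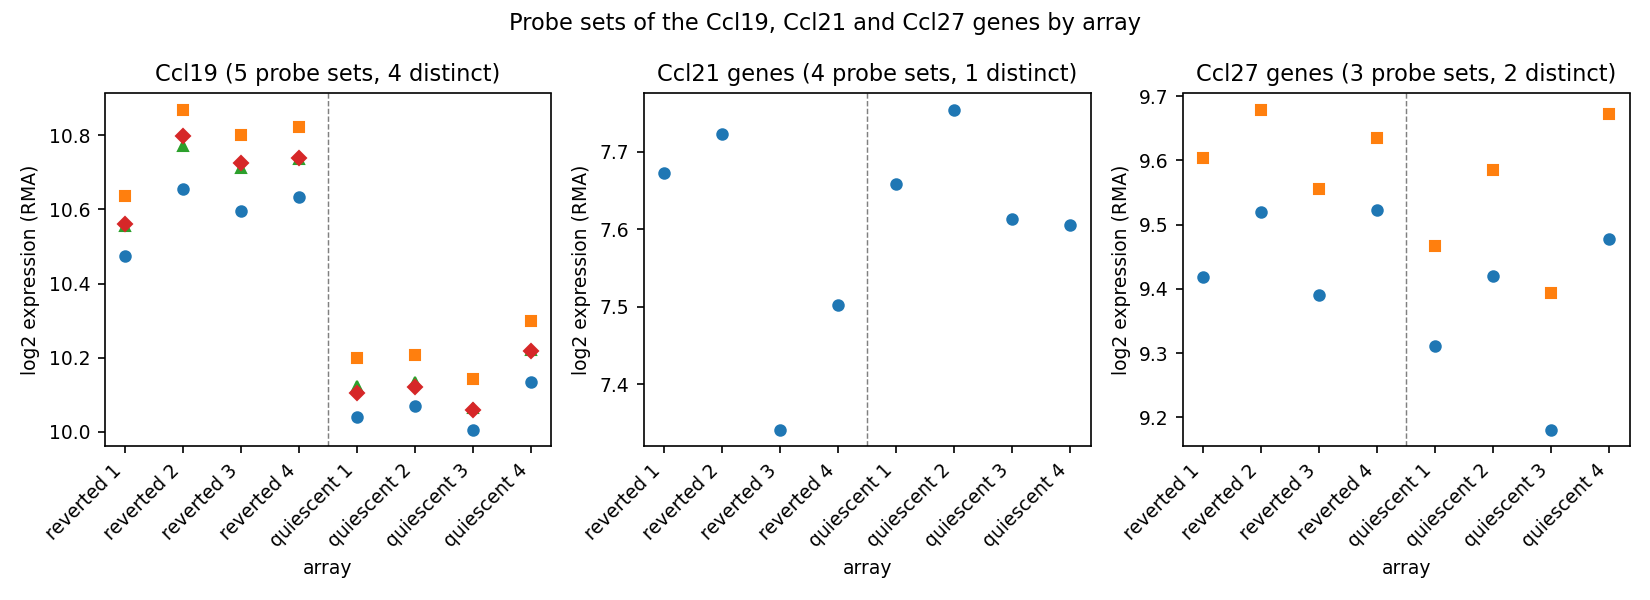
Log2 expression (vertical axes) of the distinct probe sets of the Ccl19, Ccl21 and Ccl27 genes in each array (horizontal axes; reverted left of the dashed line, quiescent right of it), 1 symbol shape per probe set. All Ccl19 probe sets lie between 10.47 and 10.87 in reverted and between 10.005 and 10.30 in quiescent arrays, while the Ccl21 and Ccl27 values overlap between the groups.

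Ccl6 is a rodent CC chemokine of myeloid cells that attracts monocytes and macrophages. Values were 7.66, 7.58, 7.72 and 7.71 in reverted arrays 1 to 4, against 7.39, 7.40, 7.42 and 7.33 in quiescent arrays 1 to 4. These groups did not overlap either, but the step was small, with a log2 change of 0.28 (SE 0.04, limma adjusted p = 0.0230). The call was lost without reverted array 1 (0.0515), 3 (0.0924) or 4 (0.0875), without quiescent array 1 (0.0718) or 2 (0.0575), and in several other fits. Of the 34 ligands, these 3 alone had all reverted arrays above all quiescent ones, which 4.64% of all genes showed. None had all reverted arrays below all quiescent arrays, against 4.09% of all genes.

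**Figure D2:**
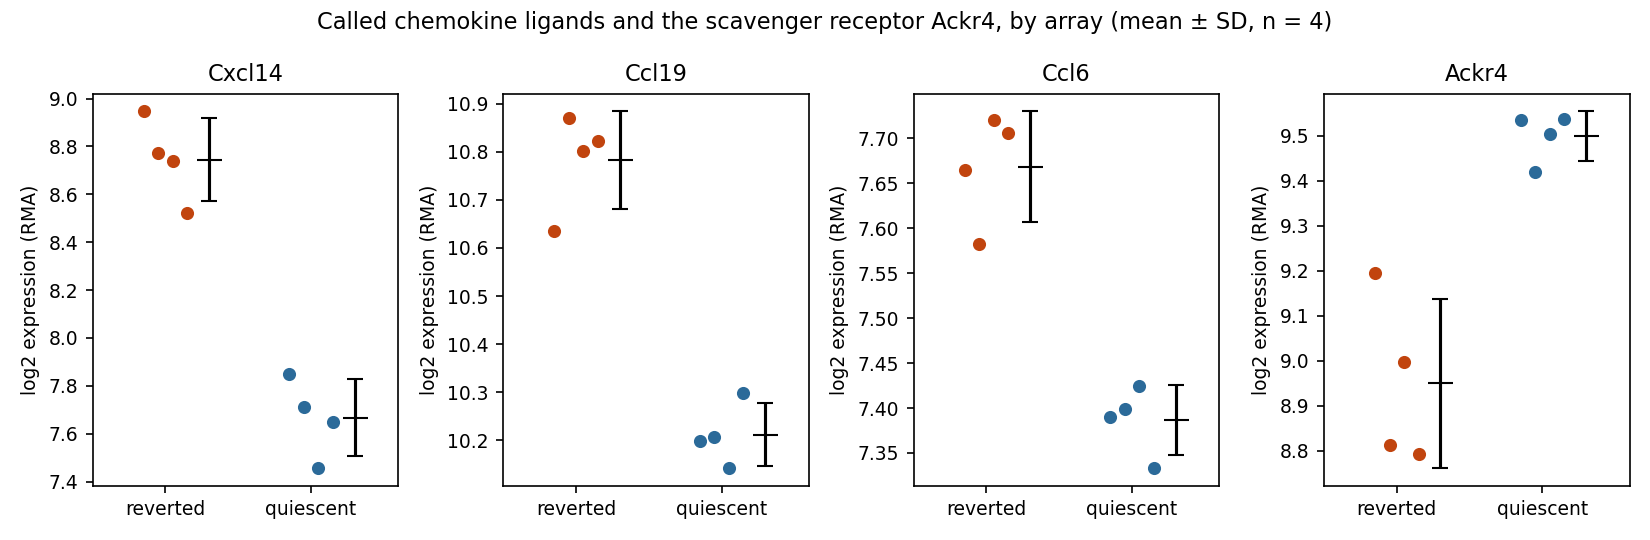
Log2 expression (vertical axes) of Cxcl14, Ccl19, Ccl6 and the scavenging receptor gene Ackr4 in the 4 reverted and 4 quiescent arrays, with each point an array and the bars the mean ± SD. In Cxcl14, Ccl19 and Ccl6 every reverted array lies above every quiescent array, and in Ackr4 every reverted array lies below.

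Markers of other cell types were read beside these calls. Among mesothelial and portal fibroblast markers, 2 of 13 rose (Wt1 and Dpt) and 0 fell, against 0.527% and 0.186% of all genes. In that list 3 had a higher mean. The third was Cd34 (log2 change 0.60, limma adjusted p = 0.0631). The rest had a lower mean, among them Msln (-0.10), Thy1 (-0.13) and Eln (-0.34). The mean level over all 13 ran from 7.76 to 7.97 in reverted and from 7.61 to 7.68 in quiescent arrays, without overlap. In a fit with this mean as a covariate, added after the data were seen, the log2 changes were 0.95 for Cxcl14 (adjusted p = 0.198), 0.77 for Ccl19 (0.183) and 0.25 for Ccl6 (0.282). That limma fit called 0 of 19938 genes, with 2853 at an unadjusted p under 0.05, and the marker mean and the group cannot be told apart in it.

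Of 17 hepatocyte markers, 1 was called higher and 1 lower, against 0.527% and 0.186% of all genes, and 16 had a higher mean. These markers averaged between 8.92 and 9.44 in reverted and between 8.29 and 9.26 in quiescent arrays. With their mean as a covariate, Cxcl14 (log2 change 1.09, adjusted p = 0.0344) and Ccl19 (0.64, 0.0222) kept their calls, and Ccl6 (0.24, 0.118) did not. Macrophage markers, from cells that make Ccl6, had 0 of 15 members called and 5 with a higher mean. Their level ran from 6.79 to 6.89 in reverted and from 6.77 to 6.87 in quiescent arrays, and with it as a covariate Ccl6 changed by 0.28 (adjusted p = 0.0424). Neutrophil and monocyte, T and NK cell, B cell and dendritic cell markers had 0 members called among 9, 11, 5 and 7 measured, with overlapping ranges. Endothelial and cholangiocyte markers likewise had 0 called among 12 and 5. In the neutrophil, T and NK, B and dendritic cell lists, 0, 1, 0 and 2 members lay above the median level of all genes. Of the macrophage markers 1 of 15 did, and of the endothelial and cholangiocyte markers 4 and 0. Whether the lower probe sets lay above background was not tested. The 0 calls and the macrophage covariate therefore do not show that the share of these cells was unchanged or adjusted for. Lyz2, Cd68 and Clec4g were named after the values of all these markers were seen. The myeloid lysozyme gene Lyz2 ran from 6.81 to 7.63 in reverted and from 6.45 to 6.67 in quiescent arrays (log2 change 0.59, adjusted p = 0.129). The macrophage gene Cd68 (log2 change 0.38, adjusted p = 0.341) overlapped. Both are among the 5 of 15 macrophage markers with a higher mean. The rest of that list had a lower mean, among them Marco (-0.15) and Fcgr1 (-0.11). The sinusoidal endothelial gene Clec4g ran from 12.08 to 12.65 in reverted and from 11.82 to 11.92 in quiescent arrays (log2 change 0.50, adjusted p = 0.0630). In its list 8 of 12 had a higher mean. Beyond these covariate fits, the part of other cells in the ligand calls was not tested.

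**Figure D3:**
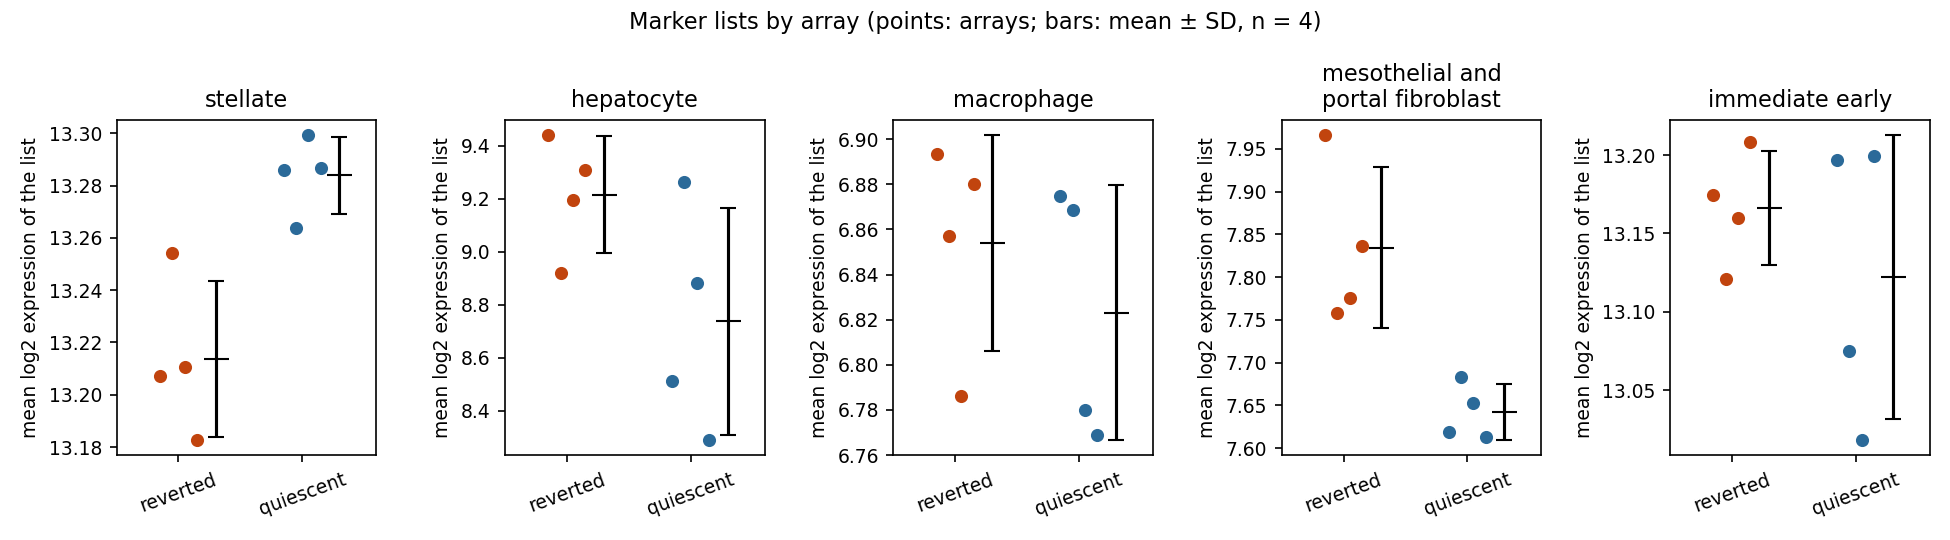
Mean log2 expression (vertical axes, each with its own scale) of 5 marker lists in the 4 reverted and 4 quiescent arrays, with points for arrays and bars for the mean ± SD over arrays. The mean of the mesothelial and portal fibroblast list lies between 7.76 and 7.97 in reverted and between 7.61 and 7.68 in quiescent arrays. In that list 3 of 13 members have a higher reverted mean. The stellate list means do not overlap either, and those of the other 3 lists overlap.

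Among the homeostatic and lymphoid CXC ligands, 1 of 4 rose (Cxcl14), 0 fell and 3 did not pass. Cxcl12, which retains Cxcr4-bearing progenitors and lymphocytes in stroma, read 13.77, 13.80, 13.74 and 13.70 in reverted arrays 1 to 4, against 13.76, 13.75, 13.77 and 13.74 in quiescent arrays 1 to 4. The arrays differed little in either group, at a log2 change of 0.00 (95% interval -0.08 to 0.08, limma adjusted p = 0.990). Its level lies near the top of the scale, which ended between 14.71 and 14.79 on these arrays. Cxcl17, a mucosal chemokine, gave 7.90, 7.81, 7.72 and 7.79 in reverted arrays, against 7.90, 8.11, 8.07 and 7.75 in quiescent arrays. Those groups overlapped, with a log2 change of -0.15 (95% interval -0.33 to 0.03, limma adjusted p = 0.373). The B cell follicle chemokine Cxcl13 also did not pass.

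The homeostatic and mucosal CC ligands had 1 rise (Ccl19) and 0 falls among 4 measured members. Ccl25, which draws thymocytes and gut-homing T cells through Ccr9, read 7.86, 8.23, 8.06 and 8.13 in reverted arrays 1 to 4, against 7.97, 7.90, 7.96 and 8.06 in quiescent arrays 1 to 4. The lowest and the highest of these 8 values were both in reverted arrays, and the log2 change of 0.10 (95% interval -0.07 to 0.27) did not pass (limma adjusted p = 0.536). A different Ccl25 probe set, not used for the gene, changed by 0.12 (adjusted p = 0.703 over all probe sets). The Ccr6 ligand Ccl20 and the mucosal ligand Ccl28 did not pass.

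Of 9 monocyte and macrophage CC ligands, 1 rose (Ccl6) and 0 fell. Ccl2, the main Ccr2 ligand that calls monocytes to injured liver, stood at 12.61, 12.36, 13.03 and 12.95 in reverted arrays 1 to 4, against 12.85, 12.35, 12.42 and 12.61 in quiescent arrays 1 to 4. Its groups overlapped widely, with a log2 change of 0.18 (95% interval -0.17 to 0.53, limma adjusted p = 0.583). Ccl7, its genomic neighbour and a further Ccr2 ligand, read 10.34, 9.97, 10.97 and 10.61 in reverted arrays, against 10.79, 10.23, 10.42 and 10.65 in quiescent arrays.

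Both the lowest and the highest Ccl7 value fell in the reverted group, and the log2 change was -0.05 (95% interval -0.50 to 0.40, limma adjusted p = 0.916). Ccl4, a chemokine made by macrophages and lymphocytes, gave 6.39, 6.28, 6.23 and 6.32 in reverted arrays, against 6.46, 6.33, 6.42 and 6.33 in quiescent arrays. The log2 change of -0.08 (95% interval -0.19 to 0.03) did not pass (limma adjusted p = 0.438). The RefSeq records of Ccl4 and Ccl3 overlap, and whether either probe set reads both genes was not tested. Ccl3, Ccl5, Ccl8, Ccl9 and Ccl12 had log2 changes with adjusted p of 0.747 or higher.

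None of the 6 eosinophil and type 2 ligands passed in limma (0 rose, 0 fell, 0 at an unadjusted p under 0.05), and 5 had a lower mean. Ccl26, an eotaxin that attracts eosinophils, read 6.28, 6.25, 6.12 and 6.18 in reverted arrays 1 to 4, against 6.25, 6.44, 6.38 and 6.16 in quiescent arrays 1 to 4. Ccl1, a Ccr8 ligand, read 6.94, 6.93, 6.90 and 6.82 in reverted arrays, against 6.89, 7.04, 6.95 and 6.92 in quiescent arrays. Both overlapped, with log2 changes of -0.10 (adjusted p = 0.472) and -0.05 (adjusted p = 0.581). The eotaxin genes Ccl11 and Ccl24 and the Ccr4 ligands Ccl17 and Ccl22 did not pass.

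The neutrophil-attracting CXC ligands mostly act on Cxcr2 and sit in a cluster on chromosome 5, and 0 of 5 rose or fell in limma. Cxcl1 gave 12.27, 12.10, 12.64 and 12.49 in reverted arrays 1 to 4, against 12.24, 12.12, 11.92 and 12.49 in quiescent arrays 1 to 4. Cxcl2 gave 9.15, 9.29, 10.28 and 10.09 in reverted arrays, against 9.15, 8.88, 8.87 and 10.05 in quiescent arrays. For Cxcl2, reverted arrays 3 and 4 and quiescent array 4 were each above 10, and the other 5 arrays were not. The log2 changes were 0.18 for Cxcl1 (95% interval -0.13 to 0.49, limma adjusted p = 0.530) and 0.47 for Cxcl2 (95% interval -0.26 to 1.19, limma adjusted p = 0.485). Leaving out single arrays took the Cxcl2 change from 0.27 to 0.74 without a call.

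Cxcl3, the third ligand with the NF-kB letters in this cluster, was lower in mean. It read 6.20, 6.10, 6.11 and 6.14 in reverted arrays 1 to 4, against 6.28, 6.31, 6.17 and 6.21 in quiescent arrays 1 to 4, a log2 change of -0.10 (95% interval -0.20 to 0.00). It was the sole ligand lower at an unadjusted p under 0.05, and it did not pass after adjustment (limma adjusted p = 0.2997). Cxcl1 and Cxcl2, which share its motif letters, were higher in mean, and none of the 3 passed. Cxcl5 and Cxcl15 did not pass.

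Cxcl9, Cxcl10 and Cxcl11 are induced by interferons and attract Cxcr3-bearing T and NK cells, and 0 of 3 passed in limma, although all 3 had a higher mean. Cxcl9 read 9.22, 9.31, 9.55 and 9.67 in reverted arrays 1 to 4, against 9.31, 7.95, 8.99 and 9.24 in quiescent arrays 1 to 4. Cxcl10 read 12.61, 12.50, 12.69 and 12.86 in reverted arrays, against 13.01, 11.44, 12.996 and 12.87 in quiescent arrays. Quiescent array 2 was the lowest of all 8 for both genes.

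The log2 changes were 0.57 for Cxcl9 (95% interval -0.04 to 1.18, limma adjusted p = 0.338) and 0.09 for Cxcl10 (95% interval -0.62 to 0.79, adjusted p = 0.907). Without quiescent array 2 they were 0.26 (adjusted p = 0.456) and -0.29 (adjusted p = 0.231), so that the sign of the Cxcl10 change rested on that array. The other 3 quiescent arrays, at 12.87 to 13.01, each lay above all 4 reverted arrays for Cxcl10, a separation that depends on leaving the low array out. For both genes the intervals over all 8 arrays reached beyond a change of 1.5-fold.

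**Figure D4:**
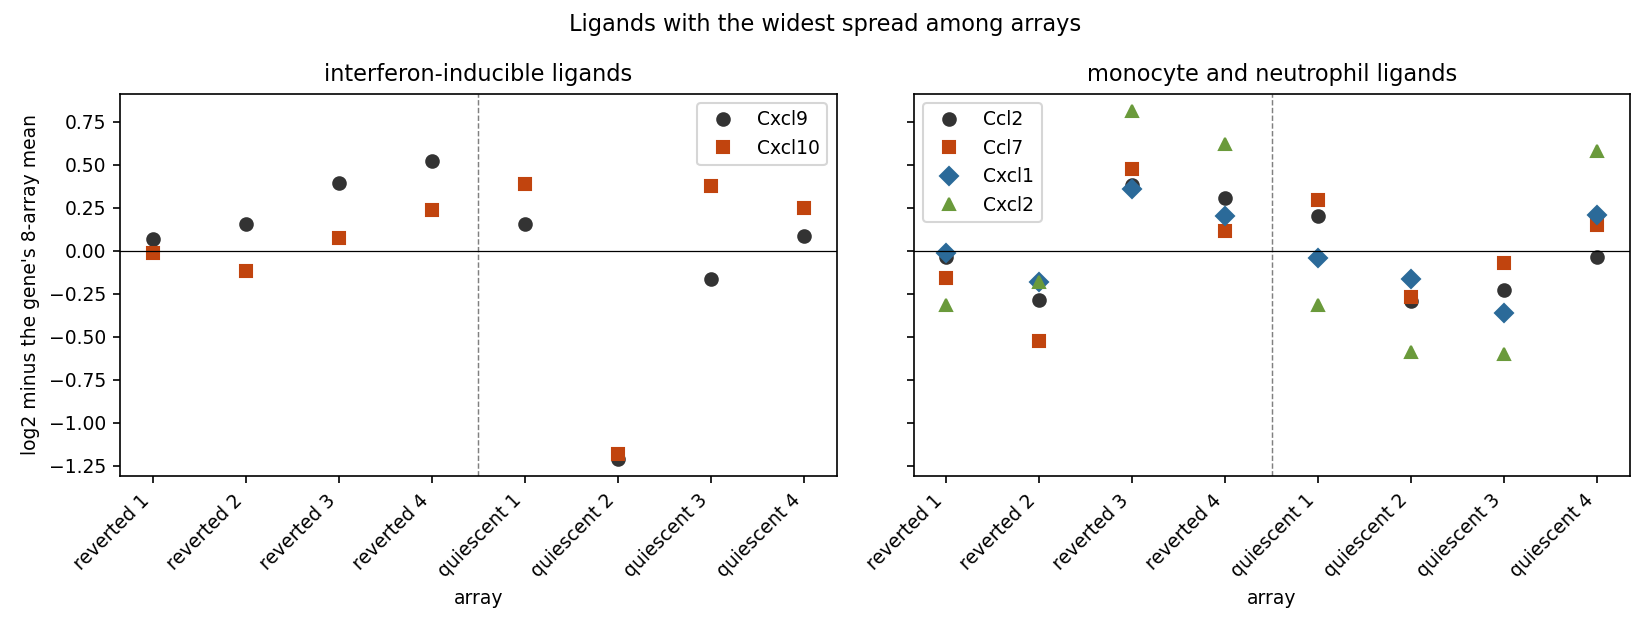
Log2 expression of each ligand minus its own mean over the 8 arrays (vertical axis) in each array (horizontal axes; reverted left of the dashed line, quiescent right of it), for the interferon-inducible ligands Cxcl9 and Cxcl10 and for Ccl2, Ccl7, Cxcl1 and Cxcl2. Quiescent array 2 holds the lowest Cxcl9 and Cxcl10 values, and reverted array 3 holds the highest value of all 4 ligands in the right panel.

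The membrane-anchored ligands, which carry their chemokine domain on a mucin stalk, had 0 of 2 called. Cx3cl1, or fractalkine, read 10.16, 9.92, 10.33 and 10.18 in reverted arrays 1 to 4, against 9.88, 10.004, 9.97 and 10.03 in quiescent arrays 1 to 4. In 3 of the 4 reverted arrays it was above every quiescent array, and reverted array 2 was not. The log2 change was 0.18 (95% interval 0.00 to 0.35), under 0.05 without adjustment but not after it (limma adjusted p = 0.308). Cxcl16, a Cxcr6 ligand and scavenger of oxidized lipoprotein, read 11.08, 11.04, 11.20 and 11.13 in reverted arrays, against 11.06, 11.03, 11.11 and 11.14 in quiescent arrays, a log2 change of 0.03 (95% interval -0.08 to 0.13, limma adjusted p = 0.799). The XC ligand Xcl1, made by T and NK cells, did not pass either.

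**Figure D5:**
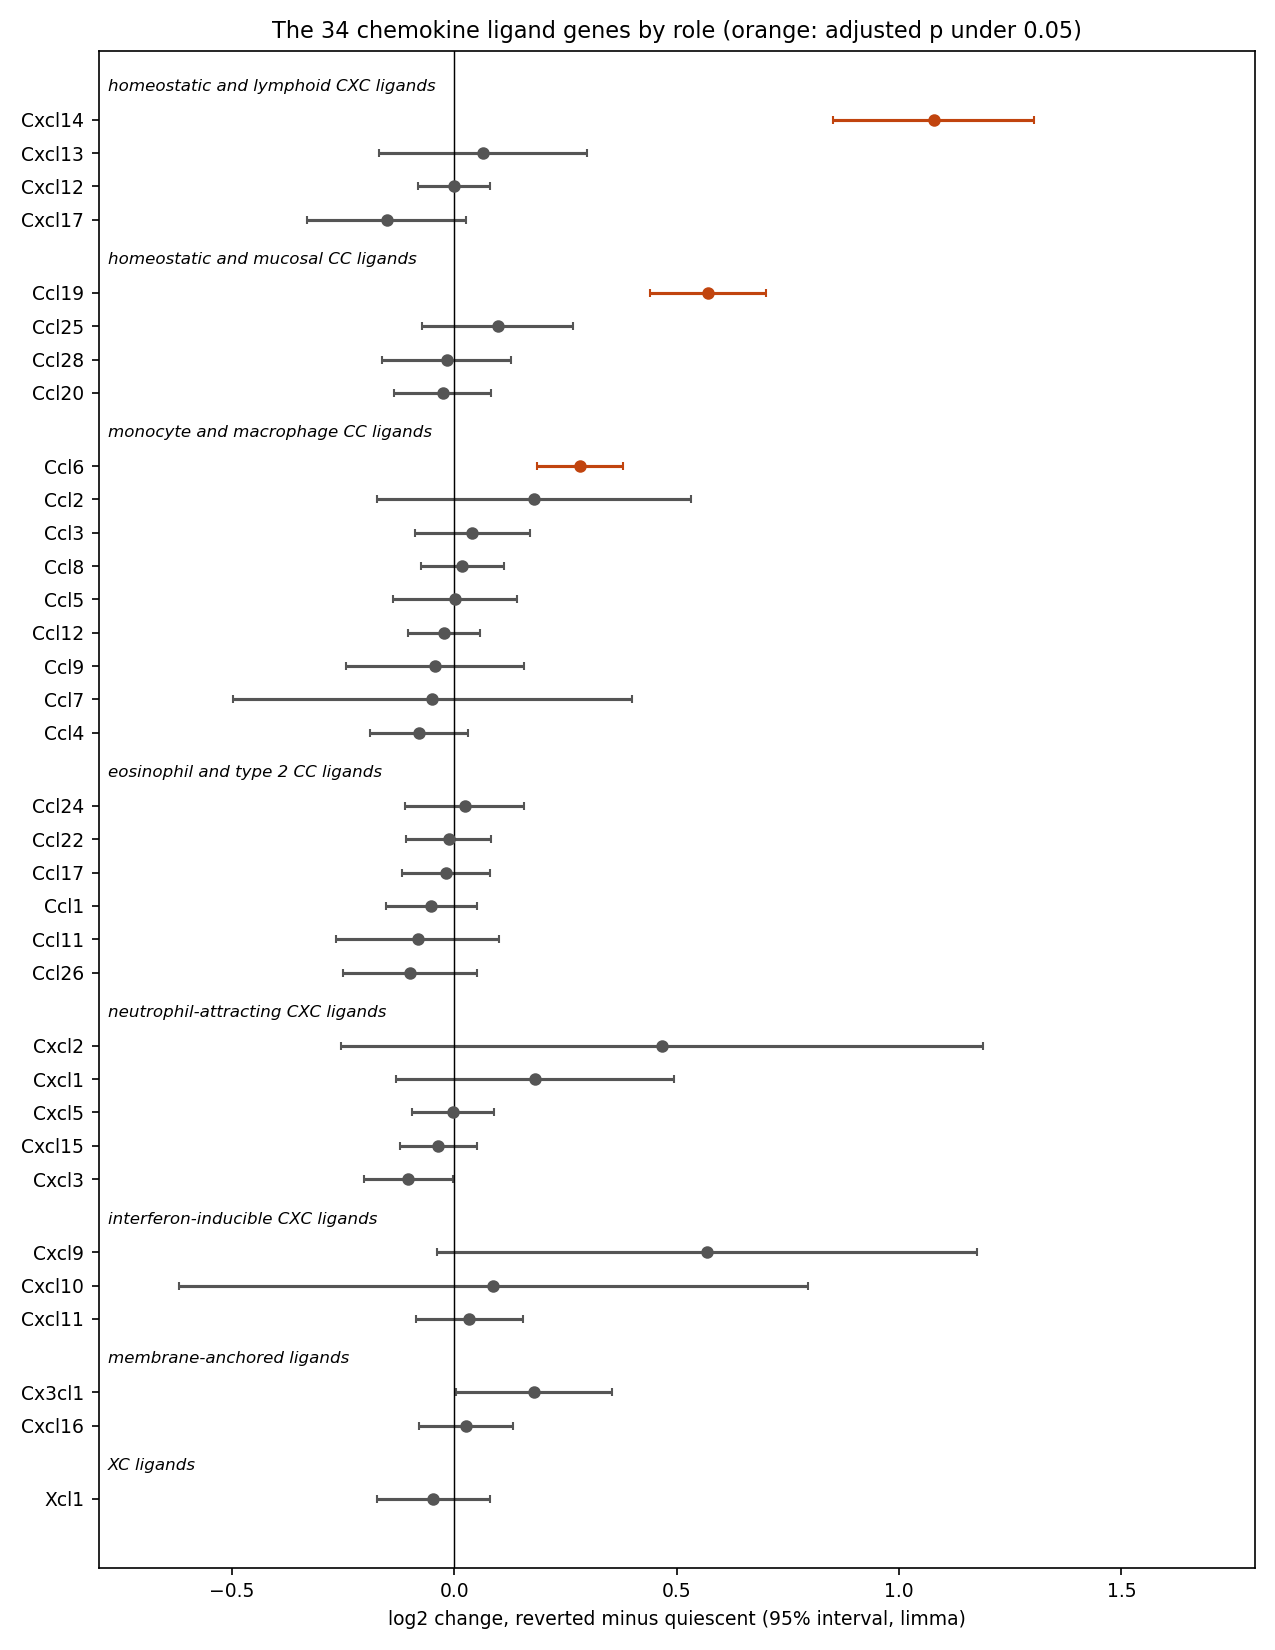
Log2 change, reverted minus quiescent, of the 34 ligands (horizontal axis) with its 95% interval from limma, grouped by role down the page, with orange for an adjusted p under 0.05. Cxcl14, Ccl19 and Ccl6 lie to the right of 0 with intervals that exclude it. The intervals of Cx3cl1 (right of 0) and Cxcl3 (left of 0) narrowly exclude it too, without a call. The widest intervals are those of Cxcl2, Cxcl9 and Cxcl10.

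Over the family, the reverted mean exceeded the quiescent mean in 17 ligands and lay under it in 17, and the median log2 change was 0.00, against -0.01 over all genes. Of the 31 ligands not called, 14 of 21 in the lower 50% of genes by level had a lower mean, and 3 of 10 in the upper 50% did. All genes showed the same tilt, with a lower mean in 71.3% of the genes of low level and 35.9% of the others. Of the 34 ligands, 12 lay in the lowest 25% of genes by level, and whether those probe sets lay above background was not tested. For 28 of the 31 ligands not called, the 95% interval lay within a change of 1.5-fold in either direction. The exceptions were Cxcl2, Cxcl9 and Cxcl10. By level, this held for 21 of 21 in the lower 50% of genes and 7 of 10 in the upper 50%. Whether a narrow interval at a low level reflects a steady gene or a weak signal was not tested. The 16 ligands given without array values ran from 5.60 to 9.13 over all arrays, with log2 changes from -0.08 to 0.06 and adjusted p from 0.628 to 0.997.

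The SD within groups was widest for 6 inducible ligands, at 0.56 for Cxcl2, 0.55 for Cxcl10, 0.47 for Cxcl9, 0.35 for Ccl7, 0.27 for Ccl2 and 0.24 for Cxcl1. It was 0.17 for Cxcl14, and its median over the 31 ligands not called was 0.0890. Of the 12 ligands in the upper 50% of genes by level, 6 had their highest value in reverted array 3, and quiescent arrays 2 and 3 held the lowest value of 4 each. A mean was taken over 12 immediate early genes, which respond to cell handling. It ran from 13.12 to 13.21 in reverted and from 13.02 to 13.20 in quiescent arrays. The lowest values were in quiescent arrays 3 and 2, and the highest was in reverted array 4. Reverted array 3 read 13.16. Whether the spread of the ligands follows this mean was not tested. With that mean as a covariate, Cxcl14 (log2 change 1.04, adjusted p = 0.00969) and Ccl19 (0.56, 0.0146) kept their calls and Ccl6 did not (0.29, 0.0623).

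Of the genes that receive, clear and present chemokines, 1 was called. Among 5 atypical receptors, which bind ligands without G-protein signalling, 1 fell and 0 rose, against 0.186% of all genes called lower and 0.527% higher. In that list 1 had an unadjusted p under 0.05 (20% of the list, against 16% of all genes). The faller was Ackr4, which scavenges Ccl19, Ccl21 and Ccl25. It read 9.19, 8.81, 8.997 and 8.79 in reverted arrays 1 to 4, against 9.53, 9.42, 9.50 and 9.54 in quiescent arrays 1 to 4. All reverted arrays lay below all quiescent arrays, and the log2 change was -0.55 (SE 0.08, limma adjusted p = 0.0241). Its call was lost without reverted array 2 (0.0649), 3 (0.0776) or 4 (0.0713) and without quiescent array 1 (0.0800) or 3 (0.0599), and with the hepatocyte (0.110), mesothelial (0.194) or immediate early gene (0.0585) covariate.

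Within the other atypical receptors, Ackr1 had a log2 change of -0.15 (adjusted p = 0.414) and Ackr2, a decoy for inflammatory CC ligands, of 0.18 (adjusted p = 0.506). Of 18 signalling chemokine receptors 0 rose and 0 fell in limma, 4 had an unadjusted p under 0.05 (22.2% of the list, against 16% of all genes) and 16 had a lower mean, with a median log2 change of -0.06. In that list 17 genes lay in the lower 50% by level, where 71.3% of all genes had a lower mean. The fractalkine receptor Cx3cr1 read 7.38, 7.32, 7.39 and 7.38 in reverted arrays 1 to 4, against 7.59, 7.72, 7.46 and 7.43 in quiescent arrays 1 to 4. These did not overlap, but the log2 change of -0.18 did not pass (adjusted p = 0.226). Cxcr3, the receptor of Cxcl9 and Cxcl10, had a log2 change of -0.19 (adjusted p = 0.226). Ccr7, named after its values were seen because it is the receptor of Ccl19, had one of -0.12 (adjusted p = 0.474). The platelet chemokines Pf4 (0.07, adjusted p = 0.786) and Ppbp (-0.06, adjusted p = 0.537), which belong to the CXC family under other names, did not pass.

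Genes for shedding, trimming and presentation of chemokines had 0 of 13 called, with a median log2 change of 0.06. Of these, 3 had an unadjusted p under 0.05 (23.1% of the list, against 16% of all genes). The heparan sulfate proteoglycan gene Sdc4 ran from 11.76 to 11.88 in reverted and from 11.61 to 11.73 in quiescent arrays, a log2 change of 0.17 (adjusted p = 0.117). Its relative Sdc3 ran from 12.95 to 13.05 in reverted and from 13.11 to 13.18 in quiescent arrays, a log2 change of -0.14 (adjusted p = 0.139). Neither pair of ranges overlapped, and neither gene passed in limma. Among 25 cytokines, receptors and transcription factors that drive chemokine genes, 0 rose and 0 fell, and the median log2 change was 0.03. An unadjusted p under 0.05 was found for 5 (20% of the list, against 16% of all genes). The interferon gamma receptor chain Ifngr2 (0.20, adjusted p = 0.168) and the cytokine gene Il1b (-0.15, adjusted p = 0.214) had the smallest p of that list.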

How the data were processed

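RNA from 4 reverted and 4 quiescent stellate cell preparations was hybridised to a whole-transcript array after amplification with a whole-transcript expression kit, per the labels' protocols. The authors deposited RMA values on the log2 scale for 35556 probe sets, as the submitters' processing notes state, while the version of RMA and its settings are not given in the sources used here. Background levels, scan dates and batches were not used here; precision is limited by there being 8 arrays. Of the probe sets, 21789 carried 1 gene symbol, 1621 several and 12146 none used here. The probe set with the highest mean was kept for each of 19938 genes, and 999 genes had several. No column lacked a sample.

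Groups were compared with limma 3.58.1 (lmFit and eBayes) in R 4.3.3, with Benjamini-Hochberg adjustment over all genes, a call at adjusted p under 0.05, and no covariate. The code was tested on simulated data. Motifs were searched with Python 3.11.15 and pandas 2.3.3. Alternatives covered normalization, filters on low values, probe set handling, variance model, array weights, replicate block, marker covariates and arrays left out.

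The members and lists were chosen with earlier results of these data known. Array values are given for called members, the 10 others with the smallest p and the 8 with the highest mean. Of each pathway list the called members and the 2 others with the smallest p are named.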

Additional observations from a re-analysis of the deposited data

Results flagged for a closer look

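Among 92 sets of 4 arrays examined (each member or named pathway gene in each group), 4 held an array whose gap to the nearest other array exceeded Dixon's 95% limit as a share of the set's range, which chance exceeds in about 1 in 20. Cxcl10 was lowest in quiescent array 2, at 11.4, with the other quiescent arrays between 12.87 and 13.01. The eotaxin gene Ccl24 was lowest in quiescent array 4, at 6.75, with the others between 6.95 and 6.99. The mucosal ligand Ccl28 was lowest in the same array, at 6.29, with the others between 6.49 and 6.52. Cx3cr1 was lowest in reverted array 2, at 7.32, with the other reverted arrays at 7.38 to 7.39.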

How the results depend on the processing

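The count of ligands called higher, 3 with all arrays, was 0 with the mesothelial and portal fibroblast covariate (limma, 4 higher and 2 lower at an unadjusted p under 0.05) and 0 with a Welch test per gene (3 higher and 1 lower unadjusted), and ran from 2 to 3 with each array left out; the count lower ran from 0 to 0. Over all genes, 105 were called higher and 37 lower. These counts were 218 and 88 with array weights, 28 and 3 with the hepatocyte covariate, 55 and 19 with the immediate early gene covariate, 0 and 0 with the mesothelial covariate, 0 and 0 with the Welch test (2369 at an unadjusted p under 0.05), and 63 and 15 with every probe set as its own feature. Quantile normalization gave 128 higher and 91 lower. Arrays left out singly gave 41 to 175 higher and 13 to 72 lower. Without quiescent arrays 2 and 4 together, chosen after the data were seen like the mesothelial covariate, 68 were higher and 16 lower, and Cebpb made 1 inflammatory input called higher. The 1 atypical receptor called lower (Ackr4) became 0 in that fit (0.109), under the hepatocyte, immediate early gene and mesothelial covariates, the Welch test (0.338) and every probe set as a feature (0.0687), and 0 to 1 with arrays left out. The Ccl6 call was lost without both those arrays (0.123), with every probe set as a feature (0.0542) and in the Welch test (0.241), which gave 0.210 for Cxcl14 and Ccl19. Without the lower 50% of genes, where 12 ligands were tested, the median log2 change was 0.18 for the ligands and 0.034 over all genes. That difference was not tested. With arrays left out, the median of the ligands was -0.0073 to 0.019.

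Sign changes all concerned genes that never passed. Cxcl16 changed by -0.0085 under quantile normalization, Cxcl10 by -0.034 with the immediate early gene covariate and -0.34 without quiescent arrays 2 and 4, and Cxcl12 by 0.0039 and 0.0074 with the hepatocyte covariate and that of immediate early genes. Ccl7 changed by 0.052 with array weights and by 0.064, 0.024 and 0.15 with the hepatocyte, macrophage and mesothelial covariates, and Pf4 by -0.0039 and -0.0017 with the hepatocyte and mesothelial ones. With arrays left out the ranges were -0.0043 to 0.050 for Cxcl16, -0.29 to 0.23 for Cxcl10, -0.22 to 0.12 for Ccl7 and -0.015 to 0.015 for Cxcl12. Beyond the changes in tested genes and samples named here, the cause was not tested. The labels number the arrays 1 to 4 in both groups, but same-numbered arrays did not deviate together (correlations of -0.15 to 0.08, against -0.24 to 0.33 for different numbers). With the replicate number as a block, 48 genes were higher and 15 lower, the Ccl6 call was lost (0.0963), and Ackr4 was not called (0.0554), giving 0 atypical receptors.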
